A study of Mus musculus with 6 samples.

Results

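Gata1, Gata2, Tal1, Lyl1, Lmo2, Zfpm1, Gfi1b, Runx1, Fli1 and Erg, 10 transcription factor and cofactor genes of stem and progenitor blood cells, were followed in single-cell RNA sequencing of mouse immortalized granulocyte-macrophage progenitors (iGMPs). They were chosen by name as 10 of the 27998 gene columns of the raw count table, and all 10 had unique molecular identifier (UMI) counts in the kept cells. The iGMPs are C57BI/6 bone marrow cells, labelled Lys-GFP-ER-HoxA9, that carry a lysozyme-driven GFP reporter and HOXA9 fused to an estrogen receptor domain, so that they self-renew while estradiol is present. In the CAF-1 OFF arm, IPTG switched on a hairpin that knocks down Chaf1b, which encodes part of the chaperone CAF-1 that loads histones onto new DNA, and estradiol was kept in the medium. In the HOXA9 OFF arm the cells went without estradiol, which switches HOXA9 off and lets the cells mature towards neutrophils. Cells were sequenced at 0, 48 and 96 h in each arm, 1 library per arm and time, 6 in all. Estradiol was used at 150 ng/ml and IPTG at 500 µM, and both 0 h libraries were kept in estradiol without IPTG. By the study's methods the CAF-1 OFF arm is a clone with the Chaf1b hairpin and the HOXA9 OFF arm a clone with the control vector, so the treatment and the clone cannot be told apart between arms.

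GATA1 and GATA2 bind the same DNA letters, and GATA2 is known from stem cells, early progenitors and mast cells, whereas GATA1 is known from red cells, megakaryocytes, mast cells and eosinophils. GATA factors work in a complex in which TAL1 or LYL1 pairs with an E protein and LMO2 bridges it, through LDB1, to the GATA factor, while RUNX1, FLI1 and ERG bind many of the same stem-cell enhancers. GFI1B is a repressor that recruits the LSD1 and CoREST proteins, and ZFPM1, also called FOG1, is the cofactor that binds GATA1 directly.

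After the study's limits on genes and mitochondrial UMIs, 5872 of 7821 barcodes were kept, 473 to 1510 per library. The share removed ran from 0.198% in HOXA9 OFF 96 h to 66.2% in HOXA9 OFF 0 h. The kept cells held 3524285 to 5589486 UMIs per library, and the median per cell lay between 5956 and 6571 in CAF-1 OFF but was 8660, 3535.5 and 2043.5 in HOXA9 OFF at 0, 48 and 96 h. A total of 34 barcode sequences occurred in more than 1 library. Chaf1b, the targeted gene, stood at 35.6 CPM in CAF-1 OFF 0 h (CPM being UMIs of a gene scaled to a common total of UMIs, so that libraries of unlike depth compare), 3.22 at 48 h and 6.49 at 96 h, and it was also lower in HOXA9 OFF, at 51.5, 15.3 and 1.13 CPM. The 6 markers of granulocyte-macrophage progenitors were all at least 2-fold lower in HOXA9 OFF 96 h, against 22.6% of the genes compared below. The 11 late neutrophil markers were all at least 2-fold higher, against 12.8%. Levels below are CPM of UMIs summed over the cells of a library. With 1 library per group there is no replicate error and no test, and all intervals are exact 95% intervals that cover counting error only.

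Of the 10 genes, 1 was at least 2-fold higher on the log2(CPM + 10) scale in CAF-1 OFF 48 h than in its 0 h library, namely Gfi1b, against 1.57% of the 10879 genes whose mean over the libraries reached 1 CPM, and 0 were lower, against 0.0368%. At 96 h Gata1 and Gfi1b were higher, against 3.41% of genes, and 0 were lower, against 0.478%. In HOXA9 OFF 48 h Runx1 and Fli1 were higher, against 7.44%, and 0 were lower, against 10.4%. By 96 h Fli1 alone was higher, against 12.8%, and Gata2, Tal1 and Erg were lower, against 22.6% of genes. The 48 h and 96 h comparisons of an arm share their 0 h library. Several genes lay near the 2-fold size. The Gata1 log2 ratio in CAF-1 OFF 96 h, 1.00 as CPM, was 0.98 with TMM factors, 0.96 with median-of-ratios factors and 0.97 over all deposited barcodes, and Runx1 was at 1.04 with TMM factors and 1.18 in cells with at most 5% mitochondrial UMIs. In the latter cells the CAF-1 OFF 96 h log2 ratio was 0.97 for Gfi1b and 0.76 for Gata1, while that of Gfi1b at 48 h was 0.81 there and 0.97 with TMM factors. With TMM factors the HOXA9 OFF 96 h ratio was -0.999 for Tal1 and -0.85 for Erg, and 1.25 for Runx1. The median log2 ratio of the 10 genes was 0.35 and 0.49 at 48 and 96 h of CAF-1 OFF, where the median of all tested genes was 0.025 and -0.024. In HOXA9 OFF it was -0.34 and -0.40, against -0.11 and -0.22 for all genes. Since the HOXA9 OFF libraries put the typical gene that far below 0, a ratio near -0.2 there is that of an average gene. Under trimmed-mean (TMM) scaling the split of all genes at HOXA9 OFF 96 h was 18.5% higher and 16.9% lower in place of the 12.8% and 22.6% above.

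**Figure D1:**
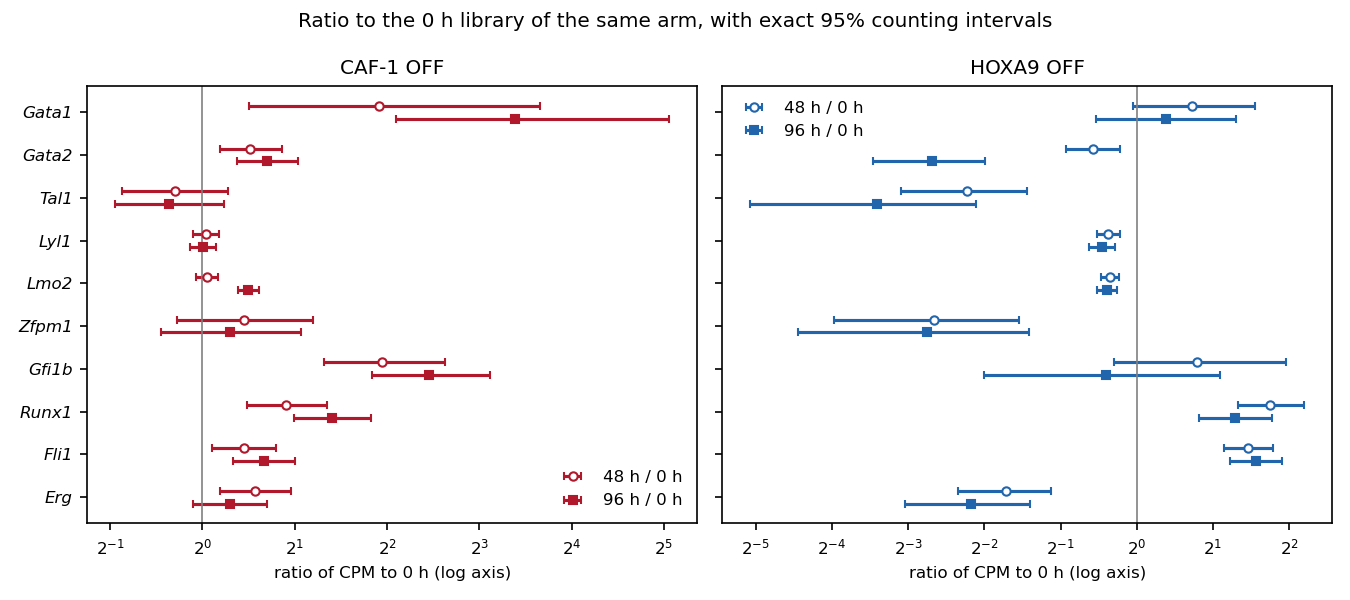
Ratio of each gene's CPM to that of the 0 h library of its arm, on a log axis, for the 48 h and 96 h libraries of CAF-1 OFF and HOXA9 OFF, with bars for the exact 95% counting interval. Gata1 (10.5-fold) and Gfi1b (5.47-fold) lie farthest above 1 in CAF-1 OFF 96 h, and Gata2, Tal1, Zfpm1 and Erg lie below 1 in HOXA9 OFF 96 h.

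The GATA factors differed from each other and between arms. Gata1 (chrX:7959260-7976663 in GRCm38.p6), at 1.19 CPM in CAF-1 OFF 0 h, stood at 4.47 CPM at 48 h and 12.4 CPM at 96 h, from 5, 25 and 67 UMIs. These are CPM ratios of 3.77 (1.42 to 12.6) and 10.5 (4.27 to 33.3). Across the HOXA9 OFF libraries it measured 5.01, 8.29 and 6.53 CPM, and the ratios of 1.65 (0.962 to 2.93) and 1.30 (0.689 to 2.47) both had intervals that held 1. Gata1 was thus a low-count gene in every library. Its highest level, in CAF-1 OFF 96 h, had an interval of 9.63 to 15.8 CPM that overlapped that of HOXA9 OFF 48 h (6.02 to 11.1). Gata2 (chr6:88193891-88207032) measured 27.0, 38.8 and 43.9 CPM across CAF-1 OFF, 1.44-fold (1.14 to 1.82) and 1.62-fold (1.29 to 2.05) above 0 h, short of the 2-fold size. Gata2 in the HOXA9 OFF libraries measured 34.8, 23.4 and 5.39 CPM, 1.49-fold lower (1.17 to 1.91) at 48 h and 6.46-fold lower (3.99 to 11) at 96 h. The 48 h log2 ratio of -0.43 as CPM was -0.19 with TMM factors and -0.25 with median-of-ratios factors. The order of Gata2 CPM levels over the libraries ran from CAF-1 OFF 96 h down to HOXA9 OFF 96 h, whose interval of 3.25 to 8.42 CPM lay below that of every other library. As these are summed values, fewer cells with a gene's RNA and less of that RNA per cell cannot be told apart in them.

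**Figure D2:**
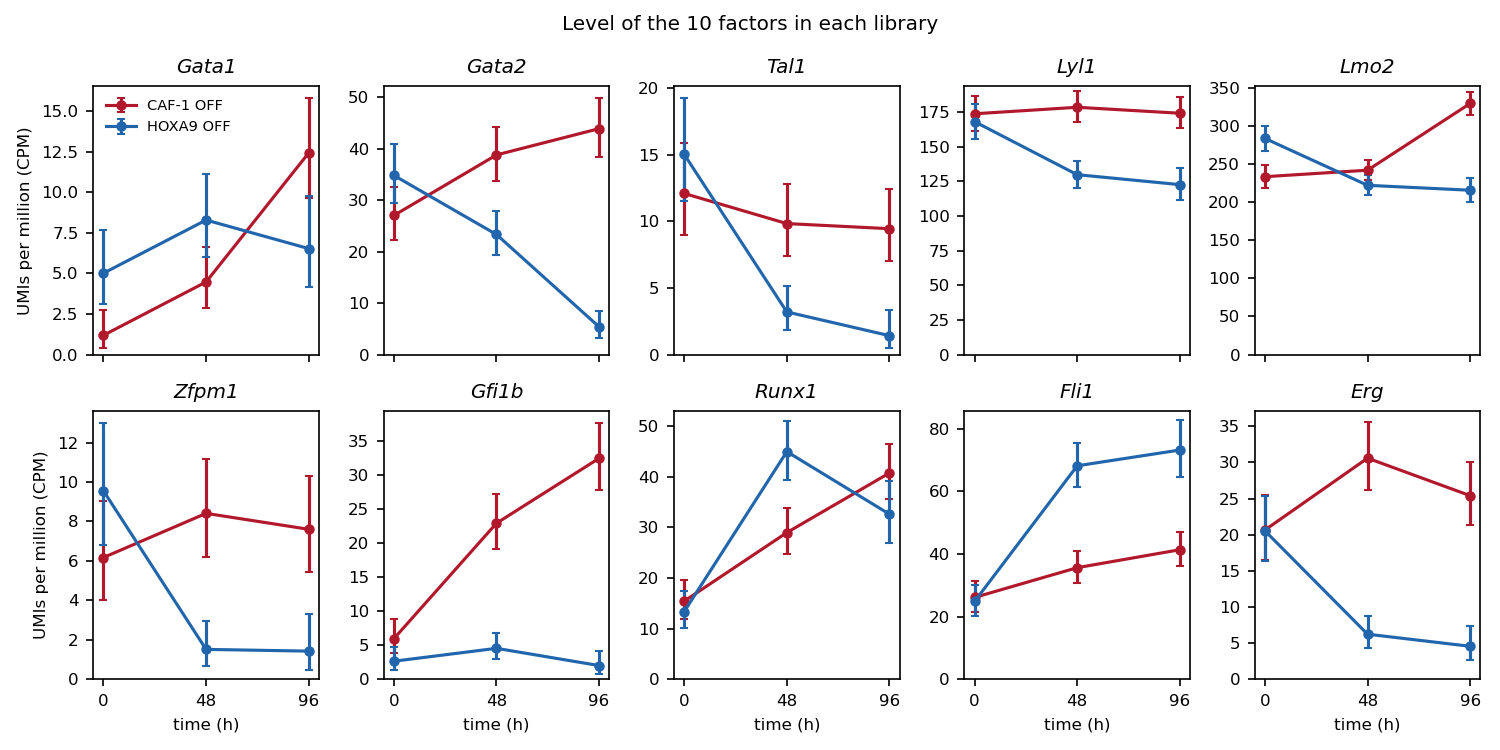
CPM of each of the 10 genes in the 6 libraries, 1 panel per gene with its own axis from 0, time in hours on the x axis, lines for CAF-1 OFF and HOXA9 OFF and bars for the exact 95% Poisson interval. Gfi1b and Gata1 are highest in CAF-1 OFF 96 h (32.4 and 12.4 CPM), Fli1 is highest in HOXA9 OFF 96 h (73.2 CPM), and Gata2, Tal1, Zfpm1 and Erg are near their lowest there.

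The GATA1 cofactor and the GFI1B repressor did not follow each other. Gfi1b (chr2:28609450-28621982) measured 5.93, 22.9 and 32.4 CPM across CAF-1 OFF, from 25, 128 and 175 UMIs, and the ratios to 0 h were 3.86 (2.50 to 6.19) and 5.47 (3.58 to 8.68). The HOXA9 OFF libraries stood at 2.63, 4.52 and 1.99 CPM, with ratios of 1.72 (0.812 to 3.89) and 0.757 (0.249 to 2.14). All 3 HOXA9 OFF libraries were below each CAF-1 OFF library in Gfi1b. Zfpm1 (chr8:122281856-122337862) measured 6.17, 8.41 and 7.60 CPM across CAF-1 OFF, where both ratios had intervals that held 1. Zfpm1 in the HOXA9 OFF libraries stood at 9.55, 1.51 and 1.42 CPM, 6.34-fold lower (2.93 to 15.7) and 6.73-fold lower (2.66 to 21.8) than at 0 h. The 10 CPM added on the log2 scale leaves that difference under 2-fold for so low a gene.

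Among the partners that bridge the GATA complex, Tal1 (chr4:115056426-115071755) was the only gene to reach the 2-fold size as CPM, in HOXA9 OFF 96 h. Its CAF-1 OFF levels were 12.1, 9.84 and 9.45 CPM, and its HOXA9 OFF levels 15.0, 3.20 and 1.42 CPM. The HOXA9 OFF levels were 4.70-fold lower (2.71 to 8.56) and 10.6-fold lower (4.31 to 33.8) than at 0 h, while in CAF-1 OFF the ratios of 0.813 and 0.781 had intervals that held 1. Lyl1 (chr8:84701423-84704716), the Tal1 relative, held 174, 178 and 174 CPM across CAF-1 OFF, with ratios of 1.03 (0.933 to 1.13) and 1.00 (0.909 to 1.11). Lyl1 in HOXA9 OFF measured 168, 130 and 123 CPM, a log2 ratio of -0.43 at 96 h that became 0.069 under TMM scaling and 0.12 under median-of-ratios scaling. Lmo2 (chr2:103957903-103981878), which encodes the LIM-only bridge, measured 234, 242 and 330 CPM across CAF-1 OFF, and its 96 h level was 1.41-fold (1.31 to 1.53) that of 0 h. Lmo2 in HOXA9 OFF measured 284, 222 and 216 CPM, a log2 ratio of -0.38 at 96 h that likewise turned to 0.13 with TMM and 0.18 with median-of-ratios scaling. No direction is therefore given for Lyl1 or Lmo2 in HOXA9 OFF 96 h.

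Runx1 and Fli1 were higher in HOXA9 OFF than at 0 h, and Erg, the other ETS gene, was lower. Runx1 (chr16:92601466-92826074), a core-binding factor of blood stem cells, measured 15.4, 29.0 and 40.8 CPM across CAF-1 OFF, 1.88-fold (1.40 to 2.55) and 2.64-fold (2.00 to 3.54) above 0 h. On the log2(CPM + 10) scale its 96 h ratio was just under the 2-fold size. Runx1 in HOXA9 OFF measured 13.4, 45.0 and 32.6 CPM, 3.37-fold (2.51 to 4.59) and 2.44-fold (1.76 to 3.42) above 0 h, so Runx1 was above its 0 h level in all 4 later libraries. Fli1 (chr9:32422204-32543432), an ETS factor of stem cells and megakaryocytes, measured 26.1, 35.6 and 41.3 CPM across CAF-1 OFF, at most 1.58-fold (1.25 to 2.01) above 0 h. Fli1 in HOXA9 OFF stood at 24.8, 68.2 and 73.2 CPM, 2.75-fold (2.20 to 3.45) and 2.95-fold (2.34 to 3.74) above 0 h. Erg (chr16:95359169-95586600), its closest relative in the list, measured 20.6, 30.6 and 25.4 CPM across CAF-1 OFF, with ratios of 1.48 (1.14 to 1.94) and 1.23 (0.934 to 1.63). Its HOXA9 OFF levels were 20.5, 6.21 and 4.54 CPM, 3.30-fold lower (2.19 to 5.10) and 4.52-fold lower (2.63 to 8.26). Fli1 and Erg thus lay on opposite sides of their 0 h levels after estradiol withdrawal.

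Before any treatment the arms already differed in some of these genes beyond counting error, though none reached the 2-fold size on the log2(CPM + 10) scale. Of the 10, 0 were higher by that size in HOXA9 OFF 0 h than in CAF-1 OFF 0 h, against 0.432% of all genes tested, and 0 were lower, against 0.0643%. The CPM ratio of HOXA9 OFF 0 h to CAF-1 OFF 0 h was 4.22 (1.55 to 14.3) for Gata1, 1.29 (1.001 to 1.66) for Gata2, barely clear of 1, and 1.22 (1.12 to 1.32) for Lmo2. Gfi1b was 2.26-fold lower (1.07 to 5.09) in HOXA9 OFF 0 h, and the intervals of the other 6 genes held 1. The share of all genes whose interval left out 1 was not computed, so these differences may be no more common here than elsewhere. Of 11 mast cell and basophil genes tested, 6 were higher by 2-fold or more in HOXA9 OFF 0 h, Cpa3 at 491 against 209 CPM and Mcpt8 at 164 against 40.1 CPM. Whether that goes with the Gata1 difference was not tested.

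The share of cells with at least 1 UMI was taken after thinning each cell to 1300 UMIs, which left 472 to 1376 cells per library. Gfi1b was found in 0.158% of cells in CAF-1 OFF 0 h, 3.31% at 48 h and 3.44% at 96 h, beside 0.636%, 0.799% and 0.291% of HOXA9 OFF cells. Without thinning, the Gfi1b shares were 3.09%, 11.2% and 15.3% for CAF-1 OFF and 1.90%, 1.42% and 0.464% for HOXA9 OFF. Gata1 was found in 0 of 633 thinned cells in CAF-1 OFF 0 h, which by the floor of 3 counts allows up to 0.474% of cells with a UMI at that depth (exact upper limit 0.581%) and puts no limit on cells that express the gene, then in 0.331% and 1.22%, beside 0.636%, 1.38% and 0.799% of HOXA9 OFF cells. Without thinning the Gata1 shares were 0.618%, 2.37% and 6.59% for CAF-1 OFF and 3.38%, 3.06% and 1.39% for HOXA9 OFF. With 67 Gata1 and 175 Gfi1b UMIs over the 911 kept cells of CAF-1 OFF 96 h, these shares could only be low. They do not show how many cells express either gene. Gata2 was seen in 3.16%, 4.30% and 4.43% of thinned CAF-1 OFF cells and 3.39%, 2.25% and 0.509% of HOXA9 OFF cells, and unthinned in 15.5%, 20.5% and 20.5% against 22.0%, 6.55% and 0.927%. Fli1 was in 2.37%, 4.19% and 6.54% against 3.18%, 8.43% and 9.30% of thinned cells, and unthinned in 15.3%, 18.8% and 21.1% against 19.2%, 22.4% and 15.3%. For Fli1 the unthinned shares of the shallower HOXA9 OFF 96 h library thus go against the thinned ones and against the CPM. Lmo2 was the most often found of the genes listed here, in 24.2% to 36.1% of thinned cells across libraries and 35.2% to 81.4% unthinned, the lowest unthinned value in HOXA9 OFF 96 h. The part of these shares that RNA from other cells gives was not measured.

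**Figure D3:**
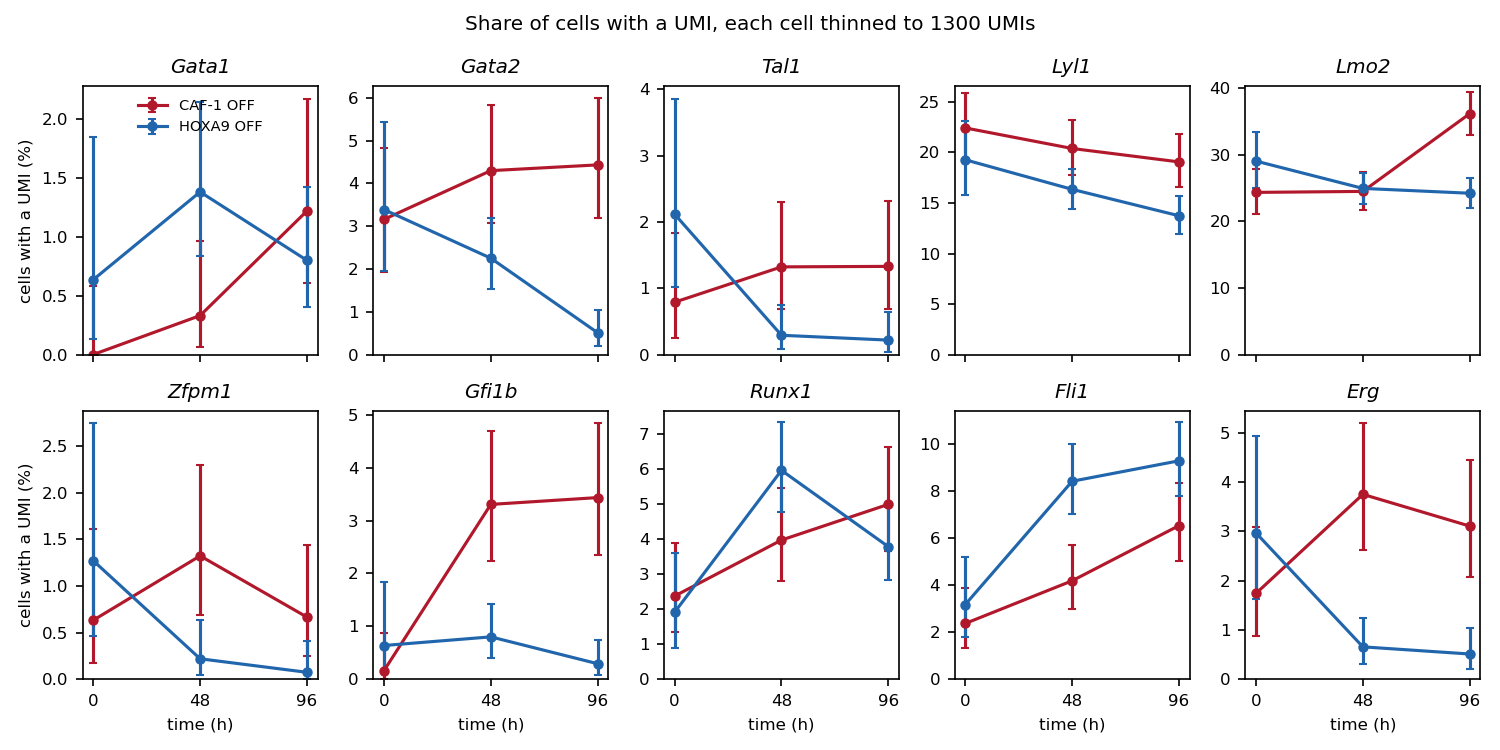
Share of cells with at least 1 UMI of each gene after thinning every cell to 1300 UMIs, in percent, for the 6 libraries, with exact 95% binomial intervals. Gfi1b reaches 3.44% in CAF-1 OFF 96 h and 0.291% in HOXA9 OFF 96 h, and Lmo2 is found in 24.2% to 36.1% of cells in every library.

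Cells rich in marker UMIs showed where the GATA factors lay within a library. These were cells with at least 5 of 1300 UMIs from a marker list, set against cells with 0. In those cells Prg2 gave 98.8% to 99.9% of the UMIs of the eosinophil list and Pf4 94.8% to 95.3% of the megakaryocyte list. Cpa3 gave 51.7% to 78.2% of the mast cell and basophil list, so the cells are named here by those genes and by no cell type. The Cpa3-rich cells of the arms differed in the other genes of that list. In CAF-1 OFF 96 h Mcpt8 gave 25.4% and Cma1 0 of the 3532 list UMIs, whereas in HOXA9 OFF 48 h Mcpt8 gave 5.72% and Cma1 11.8%. The eosinophil list summed to 154, 293 and 904 CPM in CAF-1 OFF libraries by time and to 888, 16817 and 3153 CPM in HOXA9 OFF libraries, where 4, 8 and 8 of its 8 genes had a UMI. In HOXA9 OFF 48 h, where Prg2, an eosinophil granule protein gene, stood at 16629 CPM against 876 CPM at 0 h, 272 Prg2-rich cells (19.8% of thinned cells) held 36 of the 44 Gata1 UMIs. Gata1 was at 34.7 CPM in them and 1.5 CPM in the 522 cells with none, a 23.1-fold difference (7.29 to 117). Gfi1b was at 16.4 and 1.5 CPM (10.9-fold, 3.15 to 58.1), and Lmo2 was lower in the Prg2-rich cells, at 145 and 238 CPM (0.610-fold, 0.505 to 0.734). At 96 h, 78 Prg2-rich cells had Gata1 at 63.8 CPM and the 984 without at 1.24 CPM (51.4-fold, 14.5 to 277), Gata2 at 55.3 and 0.828 CPM, and Runx1 at 76.6 and 29.8 CPM. Gfi1b was at 25.5 CPM in the Prg2-rich cells and at 0 UMIs in the others, so it was at least 20.6-fold higher by the floor of 3 counts. At 48 and 96 h the Gata1 and Gfi1b UMIs of HOXA9 OFF thus lay mostly in the Prg2-rich cells. At 0 h 19 of 21 Gata1 UMIs and all 11 Gfi1b UMIs lay outside the 9 such cells. Gata2 was high in Cpa3-rich cells as well as in those with Prg2. In HOXA9 OFF 48 h, 43 Cpa3-rich cells had Gata2 at 266 CPM and 1171 cells without at 9.89 CPM (26.9-fold, 17.4 to 41.7), Runx1 at 154 and 37.8 CPM (4.07-fold, 2.58 to 6.18) and Lmo2 at 136 and 240 CPM. Among cells rich in only 1 list, the 25 with the mast cell list had Gata2 at 454 CPM and the 254 with the eosinophil list at 37.9 CPM, and in the 1079 rich in neither it was at 9.85 CPM. In HOXA9 OFF 0 h, 13 Cpa3-rich cells had Gata1 at 58.7 and Gata2 at 218 CPM, beside 1.89 and 24.9 CPM in the 302 cells without.

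**Figure D4:**
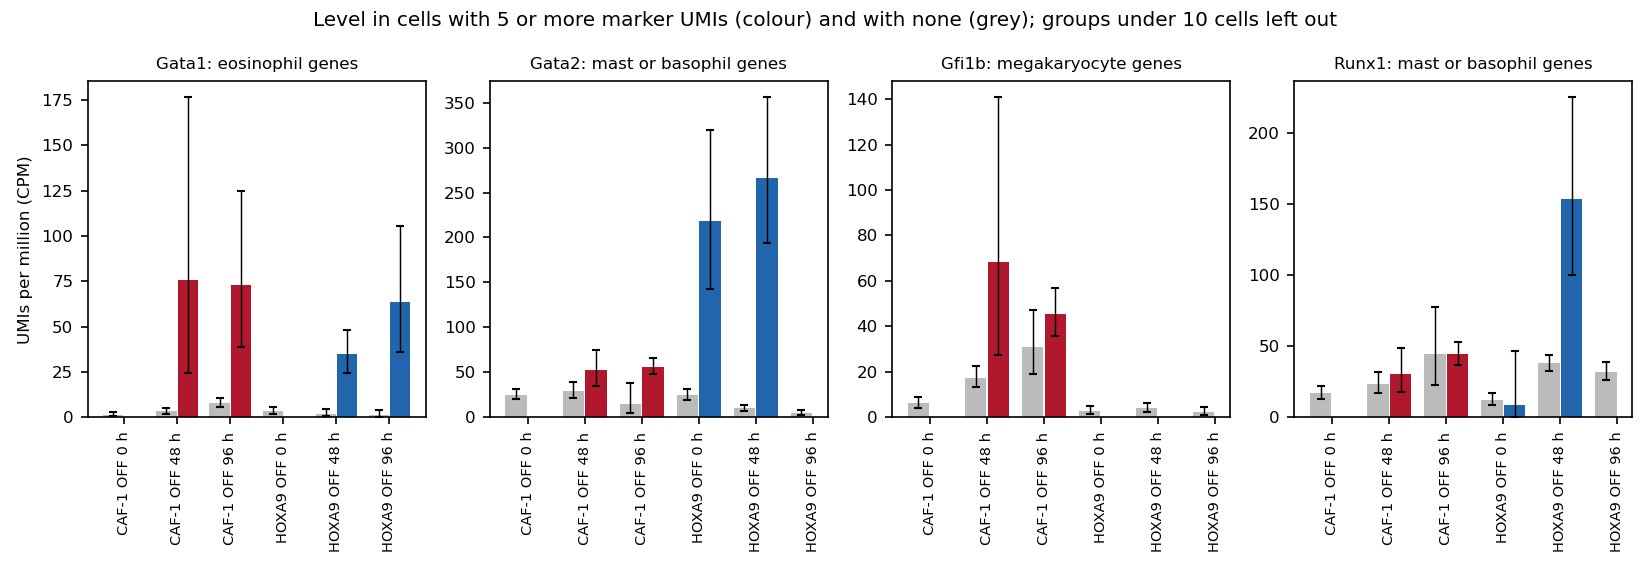
CPM of Gata1, Gata2, Gfi1b and Runx1 in cells with at least 5 of 1300 UMIs from a marker list (coloured) and in cells with none (grey), per library, with exact 95% Poisson intervals and groups under 10 cells left out. Gata1 is at 63.8 CPM in Prg2-rich cells of HOXA9 OFF 96 h and 1.24 CPM in cells without, and Gata2 is at 266 and 9.89 CPM in Cpa3-rich cells and cells without in HOXA9 OFF 48 h.

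In CAF-1 OFF 96 h the marker genes were common and the contrasts smaller. The 457 Cpa3-rich cells had Gata2 at 56.0 CPM and the 55 cells without at 14.7 CPM (3.8-fold, 1.46 to 14.1), and Gfi1b at 38.8 and 11.1 CPM (3.51-fold, 1.17 to 17.3). The 279 Pf4-rich cells had Runx1 at 50.3 CPM against 23.5 CPM in 117 cells without (2.14-fold, 1.24 to 3.91) and Lyl1 at 205 against 132 CPM, whereas Gfi1b, at 45.5 and 30.9 CPM, had a ratio of 1.47 (0.899 to 2.51). The 34 Prg2-rich cells had Gata1 at 73.1 CPM against 7.74 CPM in 793 cells without (9.45-fold, 4.61 to 18.2), but they held 13 of its 66 UMIs in cells deep enough to thin. The 21 of them that were also Cpa3-rich held 11 of those UMIs (102 CPM, 51.0 to 183), and the 13 rich in the eosinophil list only held 2 (28.5 CPM, 3.45 to 103). Gata2 was at 11.2 CPM in the Prg2-rich cells and 45.6 CPM in those without, the former from 2 UMIs in the 21 cells and 0 in the 13. Leaving out all cells rich in the mast cell or eosinophil lists, Gata1 stood at 0.962, 2.81 and 7.11 CPM in CAF-1 OFF, a CPM ratio of 7.39 (2.43 to 30.0) at 96 h but a log2(CPM + 10) ratio of 0.64, under the 2-fold size, and Gfi1b at 6.01, 21.3 and 26.1 CPM, 4.33-fold (2.70 to 7.17) higher. Gata2 was then at 27.4, 37.4 and 31.6 CPM, a 96 h ratio of 1.15 (0.855 to 1.55). Cpa3 itself differed between these libraries, so the step took unlike parts of each and these ratios do not compare the same cells. In HOXA9 OFF the same step left Gata1 at 3.24, 1.68 and 1.91 CPM and Gata2 at 29.4, 9.85 and 0.955 CPM. Fli1 in HOXA9 OFF moved little, at 24.7, 68.7 and 70.7 CPM without those cells. Runx1 was then at 13.5, 36.7 and 29.0 CPM. Its 48 h log2(CPM + 10) ratio was 0.994, just under the 2-fold size, where it was 1.24 over all kept cells. The step removed 8, 103 and 470 thinned cells of CAF-1 OFF and 20, 297 and 79 of HOXA9 OFF. Doublets called by Scrublet made up 2.13% of kept cells, 0.285% and 0.397% of them in HOXA9 OFF 48 h and 96 h, too few there to have worked as a filter.

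The promoter windows of Gfi1b and Gata1, the genes at least 2-fold higher in CAF-1 OFF 96 h, and of Tal1, Erg and Gata2, lower in HOXA9 OFF 96 h, are shown with the GATA motif (AGATAA or TGATAA, both strands) in capitals. Each is the 250 bases upstream of a RefSeq start in GRCm38.p6, 5′ to 3′ on the gene's strand.
Gfi1b, chr2:28621983-28622232, minus strand: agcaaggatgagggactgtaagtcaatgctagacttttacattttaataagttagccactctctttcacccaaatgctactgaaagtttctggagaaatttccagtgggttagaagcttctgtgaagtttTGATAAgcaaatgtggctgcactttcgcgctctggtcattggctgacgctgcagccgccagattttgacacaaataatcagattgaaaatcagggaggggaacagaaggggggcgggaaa
Gata1, chrX:7967911-7968160, minus strand: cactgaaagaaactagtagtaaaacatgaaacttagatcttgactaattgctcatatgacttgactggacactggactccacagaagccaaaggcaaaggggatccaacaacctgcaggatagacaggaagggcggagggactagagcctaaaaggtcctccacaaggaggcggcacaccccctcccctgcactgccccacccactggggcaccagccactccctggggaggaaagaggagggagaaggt
Tal1, chr4:115056176-115056425, plus strand: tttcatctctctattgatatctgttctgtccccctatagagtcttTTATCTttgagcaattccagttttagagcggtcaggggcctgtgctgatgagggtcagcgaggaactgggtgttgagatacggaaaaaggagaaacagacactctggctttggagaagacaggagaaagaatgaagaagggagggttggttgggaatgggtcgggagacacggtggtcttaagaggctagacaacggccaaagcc
Erg, chr16:95459349-95459598, minus strand: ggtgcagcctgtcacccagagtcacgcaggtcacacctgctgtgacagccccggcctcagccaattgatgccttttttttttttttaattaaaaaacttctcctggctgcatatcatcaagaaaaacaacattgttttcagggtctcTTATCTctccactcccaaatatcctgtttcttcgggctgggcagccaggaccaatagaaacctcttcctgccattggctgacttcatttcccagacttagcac
Gata2, chr6:88193641-88193890, plus strand: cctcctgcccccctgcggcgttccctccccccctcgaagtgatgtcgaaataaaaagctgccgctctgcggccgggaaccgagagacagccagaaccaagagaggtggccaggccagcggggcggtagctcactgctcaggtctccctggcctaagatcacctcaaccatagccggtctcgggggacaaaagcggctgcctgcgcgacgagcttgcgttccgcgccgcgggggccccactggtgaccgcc
The Gfi1b match began 120 bases upstream of the start, that of Tal1 205 and that of Erg 103, and the Gata1 window had none. Neither Gata2 window held a match, nor did the other Tal1 window or the 2 other Erg windows. Of the 13 windows of the 8 genes that have them, 3 held the motif, against 16.6% of the 32851 windows in the table. An ETS motif (CCGGAA) was in 2 of the 13 windows, of Lyl1 and Runx1, against 12.0%, and a RUNX motif (TGTGGT) in 0, against 14.0%. The Gata1 and Erg windows shown lie inside the span of their genes, upstream of an internal start.

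Genes known to work with or under these factors gave the following counts. Of 16 complex cofactors, 1 was at least 2-fold higher in CAF-1 OFF 48 h (Gfi1, a repressor and relative of Gfi1b), against 1.57% of all genes. At 96 h 2 were higher (Gfi1 and Cited2), against 3.41%. Gfi1 measured 27.8, 86.2 and 146 CPM across CAF-1 OFF, and 59.7, 28.1 and 4.54 CPM across HOXA9 OFF. In HOXA9 OFF 3 cofactors were lower at 48 h and 6 at 96 h, where 10.4% and 22.6% of all genes were, among them the E protein genes Tcf3, Tcf4 and Tcf12 and the co-repressor gene Cbfa2t3, which was at 23.9, 17.9 and 3.69 CPM, whereas its CAF-1 OFF levels were 25.9, 31.7 and 36.0 CPM. Cited2 was also higher in HOXA9 OFF at both times, at 64.2, 415 and 484 CPM. The LDB1 bridge gene Ldb1 measured 42.9, 32.9 and 23.9 CPM across CAF-1 OFF, beside 30.1, 14.9 and 17.0 CPM across HOXA9 OFF. Of 14 paralogues of the 10 genes, 5 were tested and Gfi1 was the only 1 at least 2-fold higher in CAF-1 OFF, at 48 h and 96 h, against the same shares. In HOXA9 OFF Runx2 was lower at 48 h, against 10.4%, and at 96 h Lmo4 was higher, against 12.8%, and Gfi1 lower, against 22.6%. Gata3 had 3 UMIs in all kept cells and Gata4, Gata5 and Zfpm2 had 0. Of 13 other stem and progenitor factors, 11 were tested. Of these 1 was lower in CAF-1 OFF 96 h (Meis1), against 0.478% of all genes. In HOXA9 OFF 5 were lower at both times (Meis1, Hlf, Myb, Mllt3 and Bmi1), against 10.4% and 22.6%. There 1 was higher at each time, Hoxa9 at 48 h and Lmo4 at 96 h, against 7.44% and 12.8%. The cells carry a HOXA9 transgene, and the study's bulk RNA sequencing at 48 h showed the transgene expressed but not the endogenous gene. Which of them gave the Hoxa9 UMIs here was not tested.

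Megakaryocyte targets had the highest median log2 ratio of the pathway and target lists in CAF-1 OFF 96 h, at 1.71. Of 17 listed, 6 were tested, and 5 of those were at least 2-fold higher at 96 h, against 3.41% of all genes. In HOXA9 OFF Itga2b and Itgb3 were higher at 48 h, against 7.44% of all genes, and Gp9 was lower at 96 h, against 22.6%. Pf4, a platelet chemokine, measured 22.3, 412 and 2481 CPM across CAF-1 OFF, beside 10.0, 2.07 and 5.11 CPM across HOXA9 OFF. Itga2b, the platelet integrin subunit CD41, measured 3.56, 13.8 and 73.0 CPM across CAF-1 OFF, beside 5.97, 28.1 and 5.11 CPM across HOXA9 OFF. Of 20 erythroid targets, 10 were tested and 4 were higher in CAF-1 OFF 96 h (Car2, Hbb-bt, Blvrb and Eng), against 3.41% of all genes. Klf1 was at 1.66, 2.50 and 1.67 CPM across CAF-1 OFF, and Alas2 and Car1 had 0 UMIs. Blvrb was higher in HOXA9 OFF too, at 12.2, 67.2 and 201 CPM, and Car2 and Tfrc were lower at both times. Of 14 mast cell and basophil targets, 11 were tested, and 2 were higher in CAF-1 OFF at both times (Cpa3 and Mcpt8), against 1.57% and 3.41%. In HOXA9 OFF 2 and then 7 were lower, against 10.4% and 22.6% of all genes. Cpa3, a mast cell protease, measured 209, 1035 and 2813 CPM across CAF-1 OFF, beside 491, 384 and 10.2 CPM across HOXA9 OFF, the same side of 0 h as Gata2 in each later library. Of 7 opposing myeloid factors, 3 were higher in CAF-1 OFF at both times (Cebpb, Cebpe and Gfi1), against 1.57% and 3.41%. In HOXA9 OFF 4 and then 3 were higher, against 7.44% and 12.8%, and Gfi1 was lower at 96 h. Spi1, the PU.1 gene whose product and GATA1 are known to inhibit each other, measured 166, 230 and 323 CPM across CAF-1 OFF, beside 154, 814 and 1049 CPM across HOXA9 OFF.

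The genes whose log2(CPM + 10) was most like that of each factor over the 6 libraries were ranked by Pearson's r among 3279 candidates. For Gfi1b these were Fbp1 (0.987), Dync2li1 (0.984), Myct1 (0.980), Tsc22d1 (0.980) and Pf4 (0.979). For Gata1 likeness was lower, led by Frat2 (0.917), Csf2rb (0.883), Stom (0.872), Edem1 (0.870) and Itga2b (0.850). For Runx1 Khk (0.992) and Id1 (0.989) led, for Fli1 Hacd4 (0.999), for Gata2 Ormdl2 (0.994), for Tal1 Fcf1 (0.997) and for Erg Gmds (0.995). With 6 points that share arms and 0 h libraries, such values are a ranking only. Lyl1, Lmo2 and Zfpm1 varied by under 1 on the log2 scale and were not ranked.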

How the data were processed

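Single-cell RNA sequencing was carried out on 6 libraries. The deposited table holds raw UMI counts per cell and gene, which the authors made with Cell Ranger, and the submitters' processing notes name Cell Ranger 3.0.1, Scanpy 1.4.6, Seurat 3.0.1 and mm10. Cells with 200 to 6000 genes and at most 10% mitochondrial UMIs were kept, UMIs were summed per library and CPM computed (Python 3.11.15, scanpy 1.11.5). Genes averaging 1 CPM or more over the libraries were compared on log2(CPM + 10) by size (2-fold), since each group is 1 library. A library at 0 UMIs was set to a floor of 3 counts. The steps were tested on simulated data. Alternative scaling used edgeR 4.0.16 and DESeq2 1.42.0. Named genes are the 10 members, listed genes, and the 5 nearest genes of each member that varied by at least 1 on the log2 scale. The 10 genes and the lists were chosen with earlier results of these data known. Promoter windows are RefSeq's.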

Additional observations from a re-analysis of the deposited data

Results flagged for a closer look

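In 4 cases the arms lay on opposite sides of their own 0 h library and both counting intervals of the CPM ratio left out 1. The share of all genes that meet this rule was not computed, so whether 4 is many is not known. The difference between the arms (log2 ratio to 0 h on log2(CPM + 10), CAF-1 OFF minus HOXA9 OFF) was 0.83 at 48 h and 2.08 at 96 h for Gata2, 0.86 at 96 h for Lmo2 and 1.32 at 48 h for Erg. Each rests on 1 library per arm and time, so the difference was not tested. For Lmo2 the HOXA9 OFF side of it depended on the scaling, since its log2 ratio was -0.38 as CPM, 0.13 with TMM factors and 0.18 with median-of-ratios factors. For Gata2 at 48 h that side was smaller under other scaling, at -0.43 as CPM, -0.19 with TMM factors and -0.25 with median-of-ratios factors. Counting intervals were computed for CPM only, so whether the Gata2 48 h case would be flagged under those factors was not tested.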

How the results depend on the processing

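No paired analysis was possible because the labels give no replicate numbers and each group is 1 library. Of 12 alternatives, the 1.5-fold size gave no new log2 ratios, and the other pseudocounts and minimum levels keep the CPM, so they could not change a sign. Over the rest, no gene that was at least 2-fold higher or lower took the other direction. Of all 525 alternative log2 ratios, those that could not change included, 20 had another sign. The numbers of genes past the size did move, and the cause was not tested. The share of all tested genes at the same setting is given in brackets after each count. With a pseudocount of 1 CPM there were 2 higher in CAF-1 OFF 48 h (7.94%). In HOXA9 OFF 3 were then lower at 48 h (23.6%) and 2 higher at 96 h (20.1%). In HOXA9 OFF 0 h against CAF-1 OFF 0 h, 1 was higher (1.99%). With 50 CPM there were 0 higher in CAF-1 OFF at 48 h (0.322%) and 96 h (0.919%). In HOXA9 OFF 0 were then higher at 48 h (2.68%), and 0 higher (5.53%) and 0 lower (9.13%) at 96 h. A mean of at least 20 CPM left 0 higher in CAF-1 OFF at both times (2.76% and 5.22%) and 1 lower in HOXA9 OFF 96 h (39.8%). A size of 1.5-fold gave 2 higher in CAF-1 OFF 48 h (4.8%), 3 lower in HOXA9 OFF 48 h (22.7%) and 2 higher at 96 h (19.8%). TMM factors gave 0 higher in CAF-1 OFF 48 h (1.40%), and 2 higher (18.5%) and 1 lower (16.9%) in HOXA9 OFF 96 h. Median-of-ratios factors gave the same 3 counts (1.36%, 19.1% and 16.3%) and 1 higher in CAF-1 OFF 96 h (3.25%). Leaving mitochondrial and ribosomal protein genes out of the total gave 2 lower in HOXA9 OFF 48 h (12.7%) and 0 higher at 96 h (10.4%). All deposited barcodes gave 0 higher in CAF-1 OFF 48 h (1.55%) and 1 at 96 h (3.43%). Cells with at most 5% mitochondrial UMIs gave the same counts (1.64% and 3.84%), and 1 lower in HOXA9 OFF 48 h (12.4%). That limit left 165 cells in CAF-1 OFF 96 h, where Gfi1b was at a log2 ratio of 0.97 and Gata1 at 0.76. The mean over cells of each cell's own CPM, added after the data were seen, gave 1 lower in HOXA9 OFF 48 h (12.0%). Depth limits Gata1, Tal1, Zfpm1 and Gfi1b, of which single libraries hold as few as 5 or 7 UMIs.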

Other observations

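The number of the 10 genes with a UMI in a cell, at 1300 UMIs per cell, averaged 0.580 (0 h), 0.674 (48 h) and 0.809 (96 h) for CAF-1 OFF, beside 0.644, 0.613 and 0.534 for HOXA9 OFF. Cells with at least 3 of them made up 0.632%, 2.09% and 2.88% of CAF-1 OFF cells and 0.212%, 1.38% and 0.872% of HOXA9 OFF cells.

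Pairs of genes in the same cell were rare at this depth. In HOXA9 OFF 48 h, Gata1 and Prg2 were found together in 18 of 1376 thinned cells (1.31%), where the product of the single shares is 0.747%. Gata2 and Cpa3 were also found together in 18 cells (1.31%), against a product of 0.313%. Gata1 and Gfi1b shared 3 cells (0.218%, against 0.0110%). In CAF-1 OFF 96 h without thinning, Gata2 and Gfi1b were found together in 46 of 911 cells (5.05%, against 3.13%), and Gfi1b and Pf4 in 137 cells (15.0%, against 14.6%). Unthinned cells differ in depth, and deeper cells show more of any genes together, so these shares are not read as the genes going together.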
